A study of Mus musculus with 10 samples.

Results

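Ephrins, Eph receptors, netrins and netrin receptors were followed in cultured mouse cells across a model of gliomagenesis. The 35 genes were chosen by family membership, not by their levels, though earlier results of these data were known. They were 9 EphA and 5 EphB receptors, 5 ephrin-A and 3 ephrin-B ligands, 3 secreted netrins and 2 netrin-G proteins. The others were 4 Unc5 receptors, *Dcc* and *Neo1*, and the netrin-linked ligases *Trim9* and *Trim67*. Each of the 35 symbols was found once among the 23230 features of the matrix. RNA had been sequenced from 10 cultures of C57BL/6 origin, all of which carried the loss of p16/p19 (*Ink4a/Arf*) and retroviral expression of human EGFRvIII, a constitutively active receptor mutant. AstroEGFR (n = 3) were astrocyte cultures from the cerebral cortex at postnatal day 5, 1 from each of 3 batches. PT (n = 4) were glioma propagating cells from tumours that such astrocytes formed in the brain of CD1 Nude mice. A figure of the study places PT1 and PT4 in batch 1, PT2 in batch 2 and PT3 in batch 3, whereas the labels give only the number in the titles, so the batch of PT4 rests on that figure. AstroEGFR_Zfp423 (n = 3) were the same astrocyte batches with a further vector for *Zfp423*, a zinc finger transcription factor. All cultures were under passage 10. Astrocytes were kept in medium with a high share of serum and PT without serum on growth factors and laminin, so the tumour step and the change of medium cannot be told apart in these libraries. EGFRvIII and *Zfp423* were expressed from viral vectors, and a sort of the cultures by cell type is not described in the sources used here.

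Eph receptors are the largest family of receptor tyrosine kinases and bind ephrins on neighbouring cells. EphA receptors bind mainly ephrin-A ligands, which are tethered to the membrane by a lipid anchor, and EphB receptors bind mainly ephrin-B ligands, which cross the membrane and can signal themselves. Contact often repels the cells, which places boundaries, guides axons and limits mixing of cell populations. Netrins are laminin-related cues: through Dcc and the related Neo1 they attract, and with Unc5 receptors they repel. Trim9 and Trim67 are E3 ubiquitin ligases that bind Dcc and act on netrin-dependent branching of axons.

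Values are FPKM as deposited, fragments scaled by transcript length and by the size of the library, which can be compared between genes for that reason. No counts were used here, so the precision that depth gives to each value is unknown. A relative depth, taken from the step between low FPKM values, was 0.0723 in AstroEGFR_3 and 0.0934 in PT3 relative to PT4, and 0.518 to 1.02 in the other libraries. Small RNA and histone features took 0.523%, 29.75% and 5.001% of the summed FPKM in AstroEGFR_1 to AstroEGFR_3, 0.737% to 34.3% in PT, and 35.7%, 35.95% and 54.9% in the libraries with *Zfp423*, each above its parent. The ubiquitous *Gapdh* ranged from 0.0106 to 50.1 FPKM between libraries, and no library had a value above 0 for *Hmgcs1*, so a value of 0 is given as listed and not as absence. *Zfp423* was at 4.30, 3.25 and 3.48 FPKM in AstroEGFR_1 to AstroEGFR_3, and at 15.7, 9.73 and 105 FPKM in the libraries of the same batches with the vector. It was at 0.641 to 2.78 FPKM in PT. The 8 astrocyte markers were all above 0 in every library. They summed to 509 to 1048 FPKM in AstroEGFR, 352 to 921 in PT and 59.4 to 904 in AstroEGFR_Zfp423. The lowest sum was that of AstroEGFR_2_Zfp423, where only 5 of the 8 reached 1 FPKM and *Gja1* alone was at 52.2 FPKM. *Gfap* was at 1.11 FPKM there, against 109 FPKM in its parent. AstroEGFR_1_Zfp423 and AstroEGFR_2_Zfp423 stood apart by 8 microglia markers, which summed to 1817 and 1049 FPKM there, to 0.101 in AstroEGFR_3_Zfp423 and to at most 11.0 in the other libraries. These 2 libraries and AstroEGFR_3 were also the highest for 6 markers of fibroblasts and meninges, at 4522, 6273 and 5138 FPKM. The other libraries had 312 and 510 FPKM in AstroEGFR, 228 in AstroEGFR_3_Zfp423 and 34.7, 1.08, 372 and 8.28 in PT1 to PT4, so these markers were lower in 3 of the 4 PT than in all AstroEGFR. Their part in the lower EphA, ephrin-A and *Unc5c* levels of PT was not tested. In such bulk RNA, fewer cells of a type and less RNA per cell cannot be told apart.

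The cells carried a broad but uneven set of guidance genes. Of the 35 genes, 12 were at 1 FPKM or more in all 10 libraries and 5 were under 1 FPKM in all of them. The latter were *Epha6*, *Epha8*, *Epha10*, *Unc5d* and *Dcc*, and *Epha6* was listed at 0 throughout. *Unc5b*, *Neo1* and *Ephb4* were at 10 FPKM or more in every library. Pooled over the 10 libraries, the highest mean in each group of genes belonged to *Epha2* (22.5 FPKM), *Ephb2* (19.6), *Efna4* (6.67), *Efnb1* (26.3), *Ntn1* (35.6), *Ntng2* (2.96), *Unc5b* (57.2), *Neo1* (33.6) and *Trim9* (80.4). The order differed within the groups of libraries: in AstroEGFR the mean of *Ntn4* (50.9) was above that of *Ntn1* (22.3) and that of *Efna5* (12.7) above that of *Efna4* (8.67). In PT the mean of *Efna1* (4.76) was above that of *Efna4* (4.11). With *Zfp423* the mean of *Ephb4* (18.6) was above that of *Ephb2* (15.4), and that of *Ntn4* (36.5) above that of *Ntn1* (17.4). The netrin receptors consisted of *Unc5b* and *Neo1* for the most part, with *Dcc* at 0 to 0.0445 FPKM. The map of levels by library shows these bands and the single strong block of *Trim9* in PT.

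**Figure D1:**
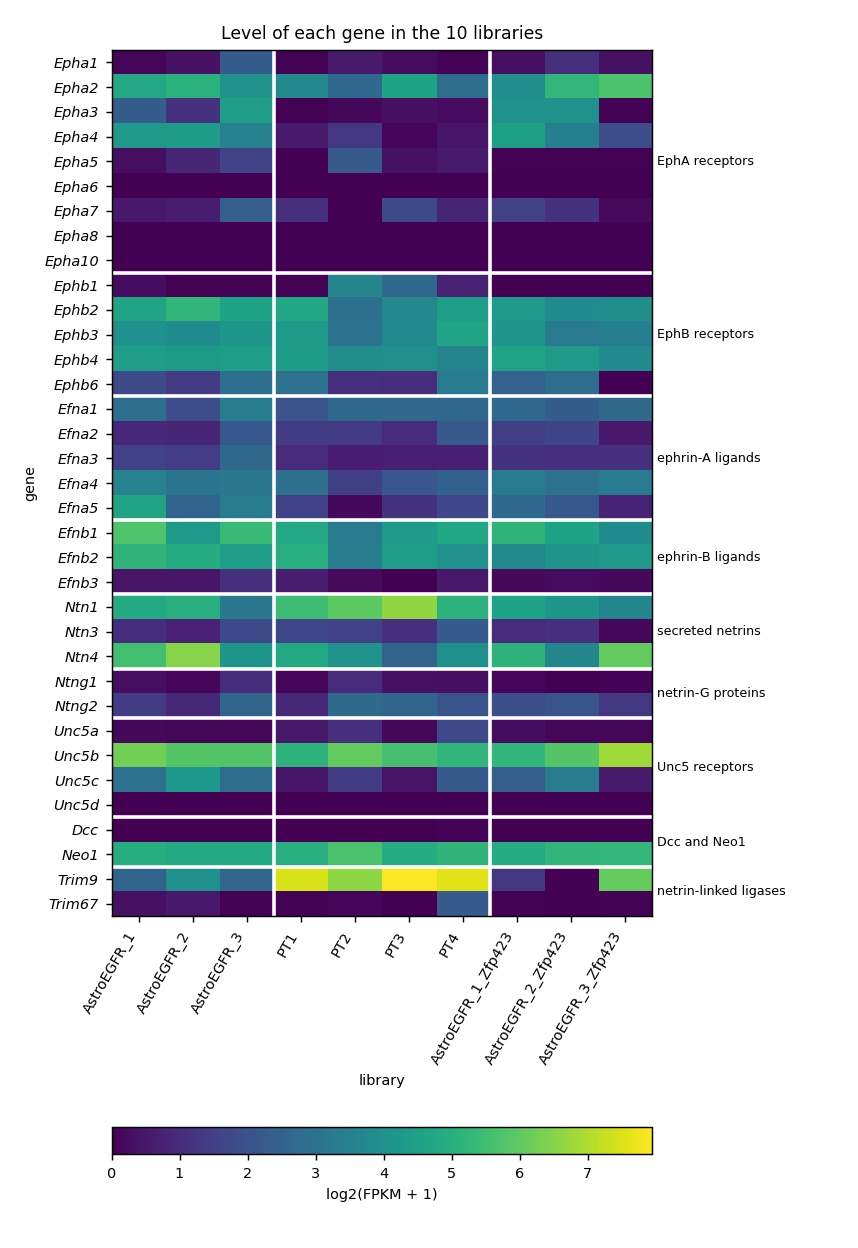
Level of the 35 genes, as log2(FPKM + 1) by colour, in each of the 10 libraries, with white lines between groups of genes and between the groups AstroEGFR, PT and AstroEGFR_Zfp423. *Trim9* is brightest in the 4 PT libraries (96.6 to 246 FPKM), *Epha4* is dark there (0.113 to 1.44 FPKM), and *Neo1* stays between 27.9 and 50.3 FPKM in all 10 libraries.

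The first comparison asked which of these genes differed between tumour-derived PT and the AstroEGFR from which they arose. *Trim9* rose to more than 96 FPKM in each PT library from fewer than 15 FPKM in each AstroEGFR library, and *Epha4* fell to at most 1.44 FPKM from at least 10 FPKM. These 2 were the only calls among 25 genes tested, with limma on log2(FPKM + 1) and Benjamini-Hochberg adjustment over 12261 features, of which 1.24% were called. The other 10 genes had a mean under 1 FPKM over the 7 libraries and were not tested. An unadjusted p under 0.05 was reached by 10 of the 25 genes, against 13.6% of all features. The ranges of PT and AstroEGFR did not overlap for 8 of the 25, against 14.8% of all features: *Trim9* and *Ntn1* were higher in PT, and *Epha3*, *Epha4*, *Efna3*, *Efna4*, *Efna5* and *Unc5c* were lower. Log2 fold changes lay below 0 for 17 genes and above 0 for 8, with a median of -0.44 beside 0.027 over all features.

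**Figure D2:**
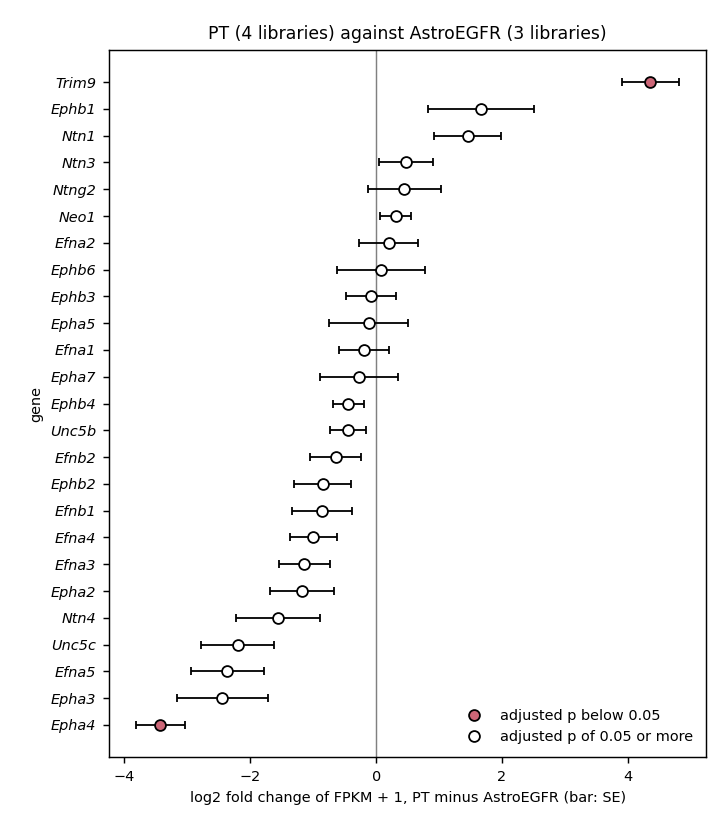
Log2 fold change of FPKM + 1 (points, with SE as bars), PT minus AstroEGFR, for the 25 genes tested; filled points passed an adjusted p of 0.05. *Trim9* (4.36) and *Epha4* (-3.43) are the filled points at either end, and 17 of the 25 points lie left of 0.

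Leaving out AstroEGFR_1, or both libraries of low depth, AstroEGFR_3 and PT3, left neither *Trim9* nor *Epha4* called, although the fold changes kept their size (4.10 and 3.96 for *Trim9*, -3.32 and -3.56 for *Epha4*). With the astrocyte batch as a block, which pairs each PT with the astrocytes of its batch, 4 of the 25 genes were called against 3.87% of all features, and *Efna5* and *Efnb1* joined the other two. With the block and PT4 left out, so that the numbers in the titles alone give the pairs, *Epha4* was the 1 gene called, and *Trim9* had a log2 fold change of 4.29 and an adjusted p of 0.0915 (limma). Another batch for PT4 was not tested.

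For the 4 genes called with or without the block, the window from 250 bases before to 50 bases after the start of transcription is shown, as given by RefSeq for GRCm38.p6, so that the sequence stands beside the levels. A promoter was matched for 31 of the 35 genes. Capitals mark GCACCC, on either strand, the element that *Zfp423* is known to bind as an inverted repeat. Each window is written 5′ to 3′ on the strand of the gene.
Trim9: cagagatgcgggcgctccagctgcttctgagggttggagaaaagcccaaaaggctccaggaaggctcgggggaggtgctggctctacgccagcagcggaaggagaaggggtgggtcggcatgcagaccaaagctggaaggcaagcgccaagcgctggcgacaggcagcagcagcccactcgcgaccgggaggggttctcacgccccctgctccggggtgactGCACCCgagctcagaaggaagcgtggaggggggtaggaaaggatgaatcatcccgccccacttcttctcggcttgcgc
Epha4: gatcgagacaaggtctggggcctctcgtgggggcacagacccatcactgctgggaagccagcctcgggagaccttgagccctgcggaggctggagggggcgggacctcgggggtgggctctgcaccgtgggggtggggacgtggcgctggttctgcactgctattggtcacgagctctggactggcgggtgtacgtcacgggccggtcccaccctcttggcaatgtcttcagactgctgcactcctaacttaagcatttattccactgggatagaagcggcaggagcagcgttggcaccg
Efna5: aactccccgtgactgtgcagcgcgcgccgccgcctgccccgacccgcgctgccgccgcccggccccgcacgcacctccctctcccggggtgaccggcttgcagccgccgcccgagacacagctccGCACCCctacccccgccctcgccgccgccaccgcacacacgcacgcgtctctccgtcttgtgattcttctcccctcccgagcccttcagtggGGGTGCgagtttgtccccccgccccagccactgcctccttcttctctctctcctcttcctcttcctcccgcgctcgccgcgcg
Efnb1: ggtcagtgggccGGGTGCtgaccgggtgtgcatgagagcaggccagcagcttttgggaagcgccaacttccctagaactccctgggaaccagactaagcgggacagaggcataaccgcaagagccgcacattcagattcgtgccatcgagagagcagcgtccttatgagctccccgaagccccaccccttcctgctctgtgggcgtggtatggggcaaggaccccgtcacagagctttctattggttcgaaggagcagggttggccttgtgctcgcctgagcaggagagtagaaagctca
The windows lie at chr12:70347565-70347864 (minus strand) for *Trim9*, chr1:77515039-77515338 (minus strand) for *Epha4*, chr17:62881268-62881567 (minus strand) for *Efna5* and chrX:99135811-99136110 (plus strand) for *Efnb1*. The 6 letters occur 1 time in the *Trim9* and *Efnb1* windows, 2 times in that of *Efna5* and not in that of *Epha4*. They were present in 10 of the 34 windows of these genes and in 15.7% of 32851 windows of all genes. The windows of the guidance genes were also richer in CpG, with a median of 23.5 CpG dinucleotides beside 7 over all windows, and the part of base composition in the motif count was not tested. No binding data were used here, and a match is only a match of letters.

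Among EphA receptors, *Epha4*, which binds ligands of both classes and is known as a receptor for repulsion of axons and astrocytes, was at 18.1, 20.1 and 10.0 FPKM in AstroEGFR_1, AstroEGFR_2 and AstroEGFR_3. In PT1, PT2, PT3 and PT4 it was at 0.476, 1.44, 0.113 and 0.365 FPKM. The lowest astrocyte library was thus well above the highest PT library, and each PT differed from the astrocytes of its own batch by -3.81 to -3.12 on the log2 scale. The log2 fold change was -3.43 ± 0.38 (SE), with an adjusted p of 0.0109 (limma), and 0.0092 with the batch as a block.

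*Epha3*, a receptor for ephrin-A5 among others, was at 4.03, 1.18 and 20.9 FPKM in the 3 AstroEGFR libraries. The PT libraries held 0.0438, 0.125, 0.246 and 0.163 FPKM in the order PT1 to PT4. No PT library reached the lowest astrocyte value, but the astrocyte libraries spread widely, and the log2 fold change of -2.44 ± 0.72 had an adjusted p of 0.181 (limma). It was -1.57 without both libraries of low depth and -4.37 with a pseudocount of 0.1 in place of 1. The 3 libraries of the whole series with *Epha3* above 15 FPKM were the same 3 with the highest sums of fibroblast and meninges markers. The part of such cells in the level of *Epha3* was not tested.

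*Epha2*, the main receptor of ephrin-A1, was at 27.0, 32.8 and 15.8 FPKM in AstroEGFR, and in PT1 to PT4 at 12.5, 5.52, 23.3 and 6.05 FPKM. PT3 lay within the astrocyte range and the other 3 PT below it, and the difference did not pass the test (log2 fold change -1.18 ± 0.51, adjusted p = 0.365, limma). For *Epha5* and *Epha7* the sign of the difference varied between batches. *Epha5* was 1.40 higher in PT2 than in AstroEGFR_2 on the log2 scale, whereas PT3 differed from AstroEGFR_3 by -1.24. *Epha1* was highest in AstroEGFR_3, at 4.05 FPKM, and was under 0.5 FPKM in the other AstroEGFR and in all PT. Together the 9 EphA receptors summed to 49.9 to 57.1 FPKM in AstroEGFR and to 7.88 to 26.5 FPKM in PT, so these sums did not overlap.

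For each of the 5 EphB receptors the ranges of PT and AstroEGFR overlapped. *Ephb2*, *Ephb3* and *Ephb4*, kinases that bind ephrin-B ligands, were at 23.3 to 36.4, 13.7 to 17.4 and 18.96 to 20.7 FPKM in AstroEGFR. In PT they were at 6.58 to 26.4, 7.09 to 24.2 and 10.8 to 19.6 FPKM. Their log2 fold changes were -0.85 ± 0.45, -0.08 ± 0.39 and -0.44 ± 0.24, and none passed the test (lowest adjusted p 0.472, limma). *Ephb1* was at 0.0293 to 0.200 FPKM in AstroEGFR, and in PT1 to PT4 at 0.0382, 11.3, 5.27 and 0.713 FPKM. Only PT2 and PT3 held more than 1 FPKM of it, and PT1 lay inside the astrocyte range (log2 fold change 1.66 ± 0.84, adjusted p = 0.449, limma). *Ephb6*, a member of the family without kinase activity, was higher than in the astrocytes of batch 1 in PT1 and PT4, at 6.93 and 8.75 FPKM against 2.36 FPKM. It was lower in PT3 than in AstroEGFR_3, at 1.01 against 6.27 FPKM. Summed EphB levels were 62.1 to 70.7 FPKM in AstroEGFR and 40.2 to 71.4 FPKM in PT. EphA receptors thereby held 44.1% to 45.7% of the summed Eph receptor FPKM in AstroEGFR and 10.8% to 36.3% in PT, as the plot of the make-up of the families shows.

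**Figure D3:**
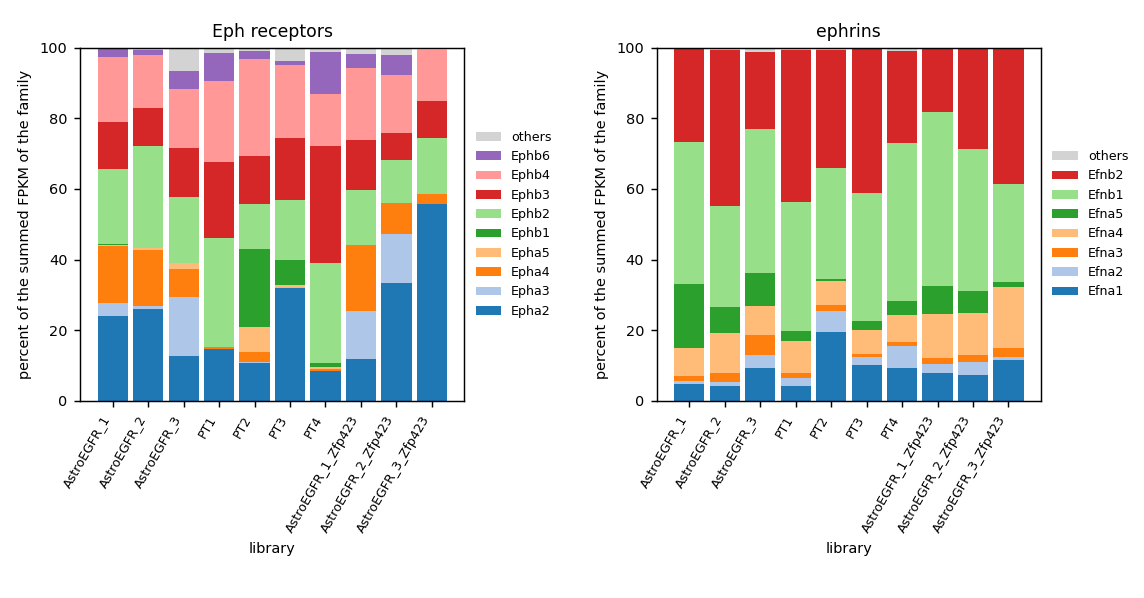
Percent of the summed FPKM of the 14 Eph receptors (left) and 8 ephrins (right) held by each gene in each library; genes under 5% in every library are pooled as others. The part of *Epha4* (16.2%, 15.9% and 8.0% in AstroEGFR) is at most 2.8% in PT, and *Ephb1* holds 22.0% in PT2 alone.

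None of the 5 ephrin-A ligands was called without the block and 1 was called with it, beside 1.24% and 3.87% of all features. For 3 of the 5 the range in PT lay below that in AstroEGFR, where 14.8% of all features had ranges apart in either direction. *Efna5*, which binds *Epha3* and *Epha4* products, was at 24.1, 4.87 and 9.21 FPKM in AstroEGFR, and in PT1 to PT4 at 1.91, 0.123, 1.26 and 2.30 FPKM. The groups did not overlap, and each PT differed from its own batch by -3.11 to -2.18 on the log2 scale. The astrocyte batches also differed among themselves. The log2 fold change of -2.37 ± 0.58 missed the threshold without the block (adjusted p = 0.117, limma), whereas with the block it was -2.58 ± 0.26 with an adjusted p of 0.0152. The same pairs without PT4 gave a like change, -2.56, with an adjusted p of 0.0808.

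*Efna3* was at 1.87, 1.73 and 5.38 FPKM in AstroEGFR, and in PT1 to PT4 at 0.986, 0.526, 0.572 and 0.638 FPKM, a log2 fold change of -1.14 ± 0.40 (adjusted p = 0.273, limma). *Efna4* was at 10.4, 7.59 and 7.99 FPKM in AstroEGFR, and in PT1 to PT4 at 6.68, 1.85, 3.43 and 4.50 FPKM, a change of -0.998 ± 0.37 (adjusted p = 0.296, limma). For both genes the groups were apart, by a small margin in PT1, and neither passed the test with or without the block. *Efna1*, an inducible ligand known from endothelium, was at 2.70 to 9.06 FPKM in AstroEGFR and 3.07 to 5.48 FPKM in PT. *Efna2* was at 0.793 to 3.55 and 1.03 to 3.61 FPKM. Both overlapped over most of their range.

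Of the ephrin-B ligands, *Efnb1*, a transmembrane ligand known for boundaries in the skull and cortex, was at 52.9, 18.9 and 39.8 FPKM in AstroEGFR, and in PT1 to PT4 at 26.7, 8.61, 18.5 and 26.4 FPKM. The groups overlapped, but the order of the batches was alike in both, and each PT differed from its own batch by -1.07 to -0.96 on the log2 scale. The log2 fold change was -0.86 ± 0.48 without the block (adjusted p = 0.500, limma) and -1.02 ± 0.14 with it (adjusted p = 0.0292). Here too the pairs without PT4 gave a like change, -1.03, that was not called (adjusted p = 0.123). *Efnb2*, the preferred ligand of *Ephb4*, was at 34.6, 29.5 and 21.2 FPKM in AstroEGFR, and in PT1 to PT4 at 31.3, 9.11, 20.8 and 15.3 FPKM, and did not pass the test (-0.64 ± 0.41, adjusted p = 0.557, limma). *Efnb3* was at most 1.11 FPKM in any library. *Efnb1* and *Efnb2* made up most of the ephrins in all 10 libraries, and the 3 ephrin-B ligands held 63.8% to 80.4% of the summed ephrin FPKM.

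**Figure D4:**
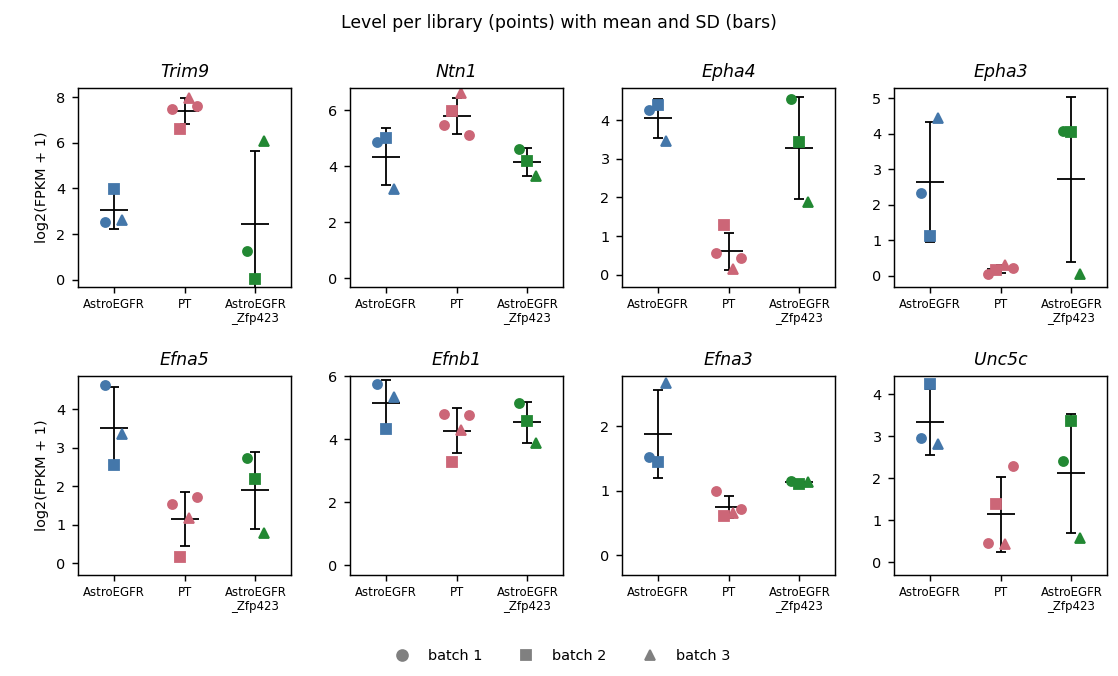
Level of 8 genes as log2(FPKM + 1) in each library (points, shaped by astrocyte batch) with the mean and SD of each group (bars), for AstroEGFR, PT and AstroEGFR_Zfp423. *Trim9* and *Ntn1* are higher in all 4 PT than in all 3 AstroEGFR, 5 of the other genes are lower, and *Efnb1* overlaps between the groups but differs by -1.07 to -0.96 between each PT and its batch.

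The 2 main secreted netrins had opposite signs. *Ntn1*, the classical chemotropic netrin, was at 27.9, 30.9 and 8.05 FPKM in AstroEGFR, and in PT1 to PT4 at 43.9, 61.3, 98.0 and 33.7 FPKM. All PT were above all AstroEGFR, by the least in PT4, and the log2 fold change of 1.46 ± 0.53 did not pass the test (adjusted p = 0.294, limma). It was 0.87 without AstroEGFR_3 and 0.60 without both libraries of low depth. *Ntn4*, a netrin of basement membranes that binds laminin chains, was at 46.0, 89.5 and 17.1 FPKM in AstroEGFR, and in PT1 to PT4 at 27.5, 15.5, 4.79 and 14.9 FPKM. Each PT was lower than its own batch, with differences of -2.46 to -0.72 on the log2 scale, and the change of -1.56 ± 0.67 had an adjusted p of 0.367 without and 0.0596 with the block (limma). *Ntn1* held 25.5% to 37.2% of the summed FPKM of the 3 secreted netrins in AstroEGFR and 59.6% to 94.3% in PT. *Ntn3* was at 0.652 to 2.45 FPKM in AstroEGFR and 1.09 to 4.01 FPKM in PT. The netrin-G proteins, lipid-anchored relatives that act at synapses and do not bind Dcc, were low, with *Ntng2* at 0.83 to 4.98 FPKM in AstroEGFR and 0.838 to 5.68 FPKM in PT, and *Ntng1* at no more than 1.07 FPKM.

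Of the repulsive netrin receptors, *Unc5c* was at 6.78, 17.9 and 6.06 FPKM in AstroEGFR, and in PT1 to PT4 at 0.368, 1.60, 0.344 and 3.89 FPKM. The groups were apart, with PT4 nearest to the astrocytes, and the log2 fold change of -2.20 ± 0.57 did not pass the test (adjusted p = 0.137, limma). *Unc5b*, also known as a netrin receptor of blood vessels, was at 74.8, 55.7 and 54.3 FPKM in AstroEGFR, and in PT1 to PT4 at 33.9, 65.2, 48.0 and 36.7 FPKM. It overlapped between the groups (-0.45 ± 0.29, adjusted p = 0.570, limma) and was the highest netrin receptor in every library, narrowly so in PT1 and PT4, where *Neo1* came near to it. *Neo1*, a receptor of netrins and of repulsive guidance molecules, was at 30.04, 27.93 and 27.96 FPKM in AstroEGFR, and in PT1 to PT4 at 31.2, 50.3, 29.0 and 35.9 FPKM. *Neo1* had a log2 fold change of 0.31 ± 0.25 (adjusted p = 0.649, limma). *Unc5a* was at 0.0804 to 0.115 FPKM in AstroEGFR and reached 1.16 and 2.36 FPKM in PT2 and PT4.

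*Trim9* showed the strongest difference. It was at 4.84, 14.9 and 5.14 FPKM in AstroEGFR, and in PT1 to PT4 at 176, 96.6, 246 and 193 FPKM. The mean was 8.29 ± 5.71 FPKM (SD, n = 3) in AstroEGFR and 178 ± 61.9 FPKM (SD, n = 4) in PT, and the highest astrocyte library and the lowest PT library were both of batch 2. The log2 fold change was 4.36 ± 0.46 (SE) with an adjusted p of 0.0103 (limma), and 4.38 with an adjusted p of 0.0231 with the block. With all 10 libraries in 1 fit, which adds the scattered *Zfp423* libraries to the estimate of the spread, the adjusted p was 0.147. *Trim9* is known from neurons. The 7 neuron markers found summed to 28.5 to 57.4 FPKM in AstroEGFR and 17.7 to 102 FPKM in PT, and most of each sum was *Tubb3*. *Gad1*, the enzyme of GABA synthesis, was higher in each PT, at 0.185 to 6.26 FPKM against 0 to 0.0734 FPKM in AstroEGFR. *Stmn2* went the other way in batches 1 and 3. It was at 3.04, 0 and 12.35 FPKM in AstroEGFR and at no more than 0.00649 FPKM in PT. *Rbfox3*, *Snap25*, *Syt1* and *Slc17a7* were under 1 FPKM in all AstroEGFR and PT libraries. The 8 markers of the oligodendrocyte lineage summed to 223, 130 and 66.8 FPKM in AstroEGFR. From PT1 to PT4 they summed to 1357, 145, 131 and 1689 FPKM, so that each PT lay above the astrocytes of its batch. Most of each sum was *Olig1* and *Olig2*, and single markers did not all rise. *Olig1* was lower in PT2 than in AstroEGFR_2, at 69.3 against 81.8 FPKM. *Pdgfra* was lower in PT1, PT2 and PT3 than in the astrocytes of their batches, and higher in PT4. The part of either cell type in the level of *Trim9* was not tested. *Trim67*, its close relative, was at most 0.448 FPKM outside PT4, where it was at 3.86 FPKM.

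In an exact permutation test of single genes (two-sided), 3 against 4 libraries can give no p below 0.0571, so this design cannot pass 0.05 for a single gene, and the 8 genes without overlap reached that value.

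Genes that act with these receptors were listed apart from them. Of 42 Eph and ephrin signalling partners, all tested, 1 rose and 1 fell in PT (median log2 fold change -0.18), beside 1.24% of all features called. *Fyn*, a Src family kinase that works downstream of Eph receptors and Dcc, was at 35.3, 33.7 and 45.5 FPKM in AstroEGFR, and in PT1 to PT4 at 129, 116, 152 and 171 FPKM. Its log2 fold change was 1.86 ± 0.24 with an adjusted p of 0.0175 (limma). *Ngef*, whose product binds *Epha4* protein, was at 26.7, 9.56 and 24.1 FPKM in AstroEGFR, and in PT1 to PT4 at 1.02, 0.721, 0.592 and 1.31 FPKM. It fell, with a log2 fold change of -3.36 ± 0.39 and an adjusted p of 0.0115 (limma). Both *Epha4* and *Ngef* were thus low in all 4 PT. The call of *Fyn* was lost without AstroEGFR_1 (adjusted p = 0.102), AstroEGFR_2 (0.05995), AstroEGFR_3 (0.0519) or PT4 (0.0627), while the log2 fold change was 1.77 to 1.99. That of *Ngef* was lost without AstroEGFR_1 (0.0759) or AstroEGFR_3 (0.0539), at log2 fold changes of -3.11 and -3.18. Without both libraries of low depth, neither was called (adjusted p = 0.101 and 0.104, limma), at 1.95 and -3.10.

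Of 18 netrin partners outside the 35 genes, 17 were found, 13 were tested and none was called (limma), with a median of -0.05. An unadjusted p under 0.05 was reached by 12 of 42 Eph partners, 3 of 13 netrin partners and 4 of 25 netrin effectors, beside 13.6% of all features. Of 27 netrin signalling effectors 25 were tested, and 1 was called, again *Fyn*, which stands in both lists (median 0.04), against the same 1.24% of all features. With the block, by which 3.87% of all features were called, *Vav3* and *Lyn* were called besides *Fyn* and *Ngef* among the Eph partners, *Gas1* among the netrin partners and *Ablim1* besides *Fyn* among the effectors. *Vav3*, an exchange factor recruited by Eph receptors, was at 3.29 to 11.0 FPKM in AstroEGFR and 11.8 to 36.3 FPKM in PT. *Ablim1*, an actin-binding LIM protein, was at 8.14 to 40.0 FPKM in AstroEGFR and 1.76 to 4.27 FPKM in PT. For these 2 genes the groups did not overlap. With the block and PT4 left out, none of the 3 lists had a called gene (limma).

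The second comparison asked what *Zfp423* did to the same genes in AstroEGFR of each batch. No gene of the family was called among 24 tested, by limma with the batch as a block, and 0% of the 12366 features tested were called. An unadjusted p under 0.05 was reached by 3 of the 24 genes against 7.38% of all features, and without the block 2 features of the whole matrix and none of these genes were called. Lower in each of the 3 batches were 5 of the 24 genes, against 15.2% of all features, and none was higher in each of the 3. Log2 fold changes lay below 0 for 19 genes and above 0 for 5, with a median of -0.30 beside 0.02 over all features.

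The 5 genes lower in each batch were *Ephb2*, *Efna3*, *Efna5*, *Efnb2* and *Unc5c*. *Efna5* was at 5.62, 3.55 and 0.718 FPKM with *Zfp423* in batches 1, 2 and 3, against 24.1, 4.87 and 9.21 FPKM without. Its log2 fold change was -1.62 ± 0.52 (unadjusted p = 0.0333, adjusted p = 0.628, limma), with a small difference in batch 2. *Unc5c* was at 4.31, 9.28 and 0.490 FPKM against 6.78, 17.9 and 6.06 FPKM, a change of -1.23 ± 0.44 with an adjusted p of 0.628 (limma). *Ephb2* was at 18.2, 13.6 and 14.5 FPKM against 23.9, 36.4 and 23.3 FPKM, a change of -0.79 ± 0.29 with the same adjusted p. *Efnb2* was at 12.8, 16.2 and 18.9 FPKM against 34.6, 29.5 and 21.2 FPKM (-0.78 ± 0.31, adjusted p = 0.628, limma). *Efna3* was at 1.22, 1.15 and 1.19 FPKM with the vector, against 1.87, 1.73 and 5.38 FPKM without. AstroEGFR served as the reference in both comparisons, so they are not independent of each other.

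In 7 of the 24 genes, a library with the vector at least 1 above its parent in one batch stood against one at least 1 below in another on the log2 scale, against 9.35% of all features. *Trim9* was at 1.43, 0.0125 and 65.8 FPKM with *Zfp423* in batches 1, 2 and 3, against 4.84, 14.9 and 5.14 FPKM without. It was thus lower in batches 1 and 2 and higher in batch 3, where it stood between the AstroEGFR and the PT range. *Epha3* was at 15.96, 15.4 and 0.0308 FPKM with the vector, against 4.03, 1.18 and 20.9 FPKM without. *Epha4* was at 22.1, 9.72 and 2.71 FPKM, and only in batch 3 was it far below all AstroEGFR. *Epha2* reached 51.1 FPKM and *Unc5b* 111 FPKM in AstroEGFR_3_Zfp423, above all other libraries. Batches 1 and 2 with the vector, in which *Trim9* was lower and *Epha3* higher, were the libraries with the microglia and fibroblast markers described above, whereas in AstroEGFR_3_Zfp423 5 of the 8 microglia markers were at 0 and none reached 1 FPKM. Markers of the oligodendrocyte lineage summed to 38.3, 54.7 and 161 FPKM with the vector in batches 1, 2 and 3. Without it they summed to 223, 130 and 66.8 FPKM, so the sums moved in the direction of *Trim9* in each batch. *Olig1* and *Olig2* moved likewise and were at 0 in AstroEGFR_2_Zfp423. Against that direction went *Pdgfra* in batches 1 and 3, *Cspg4* in batches 2 and 3 and *Mbp* in each batch. *Cspg4* was at 49.9 FPKM in AstroEGFR_2_Zfp423, most of the sum there, against 1.12 FPKM in its parent. The part of these cell types in the differences was not tested. Without small RNA and histone features, and with the libraries rescaled, no gene of the family was called either, and the log2 fold changes of *Efna5*, *Ephb2* and *Unc5c* were -1.67, -0.85 and -1.29. The plot of differences by batch shows how far batch 3 lies from the other two.

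**Figure D5:**
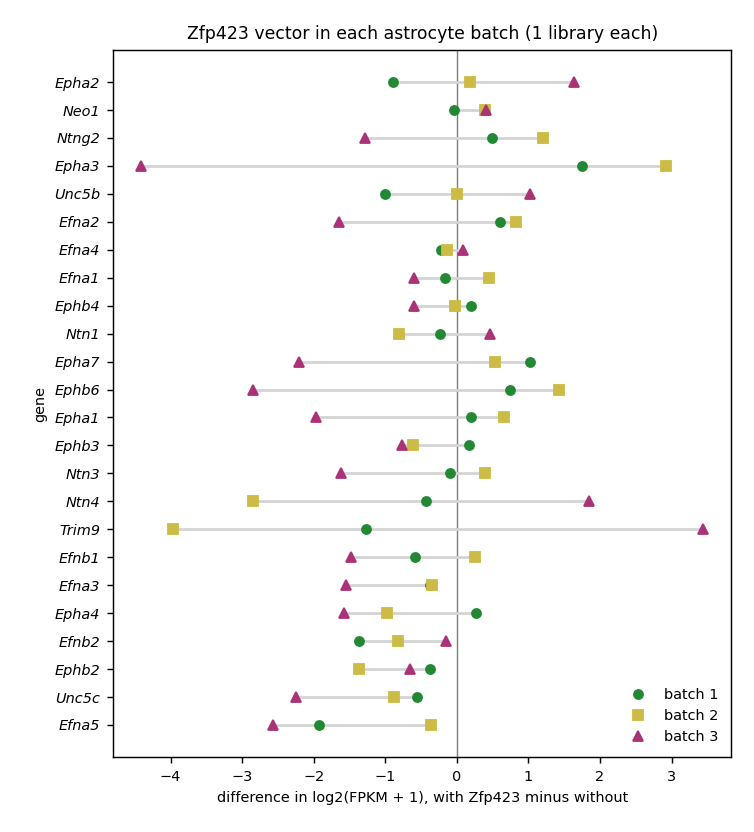
Difference in log2(FPKM + 1) between the library with and the library without *Zfp423* in each of the 3 astrocyte batches (points), for the 24 genes tested, with a grey line over their range. Batch 3 lies at -4.41 for *Epha3* and at 3.44 for *Trim9*, where batch 2 lies at 2.92 and -3.97.

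The libraries with *Zfp423* were also placed on the difference between AstroEGFR and PT, for the 8 genes whose ranges did not overlap. Beyond all AstroEGFR on the side of PT were 2 of the 8 genes in AstroEGFR_1_Zfp423, 4 in AstroEGFR_2_Zfp423 and 6 in AstroEGFR_3_Zfp423. Over all 1810 features without overlap the shares were 26.9%, 44.0% and 65.4%, close to the 25%, 50% and 75% of these genes. In AstroEGFR_3_Zfp423 the 6 genes were *Trim9*, *Epha3*, *Epha4*, *Efna3*, *Efna5* and *Unc5c*, and *Efna5* and *Unc5c* lay within the PT range. *Ntn1* was at 11.4 FPKM in that library, below each PT. None of the lists of partners and effectors had a called gene in this comparison (limma), with 2 of 40 Eph partners, 1 of 13 netrin partners and 2 of 25 effectors at an unadjusted p under 0.05, near the 7.38% of all features.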

How the data were processed

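RNAseq of 10 cultures was used. The authors deposited FPKM values of 23230 features, named by gene symbol, without counts; the submitters' processing notes name TopHat 1.3, Cuffnorm and mm9. The labels name a TruSeq RNA kit, whereas the study's methods describe ribosomal RNA removal, and the vector for *Zfp423* is lentiviral by the labels but retroviral by the methods.

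The tests used log2(FPKM + 1), a scale that understates the change of weakly expressed genes, and limma 3.58.1 (R 4.3.3; linear model, empirical Bayes with trend). A feature entered a fit when its mean there reached 1 FPKM. Benjamini-Hochberg adjustment ran over all features of the fit, and the threshold was 0.05. PT against AstroEGFR had no block, and AstroEGFR_Zfp423 against AstroEGFR had the astrocyte batch as a block. The pairing of batches comes from a figure of the study for PT and from the titles for the *Zfp423* libraries. Deviations from the group means correlated at 0.347 to 0.5 between PT and AstroEGFR of 1 batch, and at -0.341 to -0.0919 between unlike batches. The pairs with and without *Zfp423* correlated at 0.239, -0.11 and -0.261, and unlike batches at -0.23 to 0.305. The *Zfp423* pairs of batches 2 and 3 thus rest on the titles and not on these correlations. P-values measure the spread between these cultures.

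Genes were described in every library where they were called with or without the block, or where PT and AstroEGFR did not overlap with a log2 fold change of at least 1. Genes with the highest mean of each group were named too, with called genes of the lists. *Vav3*, *Ablim1* and other genes outside these criteria were described after their values were seen. The 35 genes, the lists and the tests were chosen with earlier results of these data known. Alternatives were a pseudocount of 0.1, no filter, median-ratio scaling, removal of 825 small RNA and histone features, no trend, all 10 libraries in 1 fit, other blocks, PT1 and PT4 averaged, and each library left out. Promoters were those of RefSeq (GRCm38.p6). Python 3.11.15 with numpy 2.4.6, pandas 2.3.3, scipy 1.17.1 and matplotlib 3.10.9 was used. ChIPseq data were not used here.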

Additional observations from a re-analysis of the deposited data

Results flagged for a closer look

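*Efna1* was at 3.07 FPKM in PT1, far below the other 3 PT libraries (5.19 to 5.48 FPKM) by Dixon's criterion. This was 1 of 25 genes examined, and chance flags about 1 in 20.

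With *Zfp423*, 7 genes moved by at least 1 on the log2 scale in opposite directions in 2 batches, and the differences between batches were not tested. *Trim9* differed by 3.44 in batch 3 and by -3.97 in batch 2, and *Epha3* by -4.41 in batch 3 and by 2.92 in batch 2. The values were -2.85 in batch 3 and 1.43 in batch 2 for *Ephb6*, and -2.21 in batch 3 and 1.02 in batch 1 for *Epha7*. *Ntn4* differed by 1.84 in batch 3 and by -2.84 in batch 2, *Ntng2* by -1.28 in batch 3 and by 1.21 in batch 2, and *Unc5b* by 1.02 in batch 3 and by -1.004 in batch 1.

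Between PT and the astrocytes of the same batch, 2 genes differed by at least 1 in every PT library of 1 batch and by at least 1 the other way in another batch, which was not tested either. *Epha5* was 1.40 higher in PT2 and differed by -1.24 in PT3. *Ephb6* was 1.24 and 1.54 higher in PT1 and PT4 and differed by -1.85 in PT3. Other genes changed sign with smaller or unequal differences, such as *Efna2*, at 0.52 in PT1, 1.32 in PT4 and -1.17 in PT3.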

How the results depend on the processing

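*Trim9*, *Epha2*, *Epha3*, *Epha4*, *Ephb1*, *Efna3*, *Efna4*, *Efna5*, *Efnb1*, *Ntn1*, *Ntn4*, *Unc5c*, *Fyn* and *Ngef* kept the sign of their log2 fold change under each alternative run. *Trim9* ranged from 3.96 to 4.83 and *Epha4* from -4.83 to -3.25 in PT against AstroEGFR. The count of called genes was 2 of the family, 2 Eph partners, 0 netrin partners and 1 netrin effector. It stayed at 2 of the family with a pseudocount of 0.1, no filter, either scaling and no trend. With the batch as a replicate block the counts were 4, 4, 1 and 2. With a replicate block by the number in the titles, which gives the same pairs without PT4, they were 1 of the family, 0 Eph partners, 0 netrin partners and 0 effectors, and with all 10 libraries in 1 fit 1 of the family, 0 Eph partners and 0 effectors. With PT1 and PT4 averaged, 1 Eph partner and 0 effectors were called. Without AstroEGFR_3 and PT3, a setting chosen after seeing the data, 0 of the family, 0 Eph partners and 0 effectors were called. Leaving out 1 library at a time gave 0 to 2 of the family, 0 to 2 Eph partners and 0 to 1 effector. The family had 0 calls without AstroEGFR_1, and *Trim9* and *Epha4* were called without any other single library. Over all features the calls went from 152 to 475 with the batch block, to 204 without small RNA and histone features, and to 62 with all libraries in 1 fit. They were 59 with PT1 and PT4 averaged, 31 with the block and PT4 left out, 8 without the libraries of low depth and 7 to 123 with 1 library left out. With *Zfp423*, no gene of the family or the lists was called under any alternative, while all features gave 0 calls, 2 with no replicate block and 51 without replicate 2. Among the 35 genes, the batch block added the calls of *Efna5* and *Efnb1*. With PT4 left out as well, *Efna5*, *Efnb1* and *Trim9* were not called, at fold changes of -2.56, -1.03 and 4.29. *Fyn* was also lost with all libraries in 1 fit (adjusted p = 0.0526, limma), the block with PT4 left out (0.0652) and PT1 and PT4 averaged (0.0551), and *Ngef* with the first and second of these (0.0644 and 0.0652). With a pseudocount of 0.1 *Epha3* was at -4.37, *Efna3* at -1.83 and *Ephb1* at 3.22, and without both libraries of low depth *Epha2* was at -1.85, *Epha3* at -1.57, *Efna3* at -0.72 and *Ntn1* at 0.60. Uncalled fold changes that moved by over 1.5 times without 1 library were *Efna3* without AstroEGFR_3 (-0.75), *Efnb1* without AstroEGFR_1 (-0.55) or PT2 (-0.52), *Ephb1* without PT2 (1.04), *Ntn1* without AstroEGFR_3 (0.87), *Ntn4* without AstroEGFR_2 (-1.02) and, with *Zfp423*, *Ephb2* without replicate 2 (-0.51) and *Unc5c* without replicate 3 (-0.72). The depth limits weak genes most in AstroEGFR_3 and PT3, and its effect on single values was not tested.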
